A study of Mus musculus with 4 samples.

Results

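Lncpint, Pvt1 and Tug1 are long non-coding RNAs (lncRNAs) that have each been tied to the control of cell growth, and they are described here in primary mouse hepatocytes, either control cells or cells given non-essential amino acids (NEAA). The members were all rows of the deposited files whose Ensembl gene identifier belongs to 1 of these 3 symbols in GENCODE M21, and there were 34 such rows among 37363 rows of 19284 identifiers. Lncpint had 16 rows, Pvt1 10 and Tug1 8, and a row is called a model below. These numbers equal the numbers of transcripts that GENCODE M21 annotates for the genes, but a row carries a gene identifier and no transcript identifier, so a model number is its place among the rows of its gene and does not name a transcript.

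The samples were 2 control and 2 NEAA samples of mouse primary hepatocytes from liver, the cells that carry out most of the metabolism of that organ. The sources used here do not give the strain, genotype or age of the mice, the medium shared by all samples, or which NEAA were added, at what dose and for how long. Since the labels do not tell whether replicates were separate cultures or mice, a p-value covers only the spread of these samples, and that spread may be technical. The submitters asked how NEAA act on lncRNAs.

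Lncpint takes its name from being induced by p53, the transcription factor that stops the growth of damaged cells, and in mouse cells it has been reported to bind the Polycomb repressive complex 2 (PRC2), which marks genes for silencing. Pvt1 lies next to the growth gene Myc and is a site of rearrangement in mouse plasmacytomas and human lymphomas. In human cells its RNA has been reported to keep MYC protein stable. Tug1 was found as an RNA raised by taurine in the developing mouse retina, shares its start region with the gene Morc2a, and has been reported in human cells to respond to p53 and to bind PRC2.

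RefSeq promoters on GRCm38.p6, 250 bases before to 50 bases after a start of transcription, could be matched for 2 of the 3 members and are shown as the stretches where motifs of the pathways named above would be read. Both starts lie inside the span that GENCODE M21 gives the gene. They were searched for the E-box CACGTG, a motif that Myc and its partner Max bind and that reads the same on both strands, and for the p53 half-site on both strands. The E-box is in capitals. The Lncpint promoter is at chr6:31218425-31218724, minus strand, and that of Tug1 at chr11:3648765-3649064, minus strand.
Lncpint: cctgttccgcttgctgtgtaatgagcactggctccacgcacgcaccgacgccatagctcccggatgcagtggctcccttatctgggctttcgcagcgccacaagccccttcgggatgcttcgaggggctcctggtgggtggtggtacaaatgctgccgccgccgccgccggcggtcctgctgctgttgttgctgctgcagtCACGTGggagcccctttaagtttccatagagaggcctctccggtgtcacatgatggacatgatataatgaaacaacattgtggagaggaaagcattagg
Tug1: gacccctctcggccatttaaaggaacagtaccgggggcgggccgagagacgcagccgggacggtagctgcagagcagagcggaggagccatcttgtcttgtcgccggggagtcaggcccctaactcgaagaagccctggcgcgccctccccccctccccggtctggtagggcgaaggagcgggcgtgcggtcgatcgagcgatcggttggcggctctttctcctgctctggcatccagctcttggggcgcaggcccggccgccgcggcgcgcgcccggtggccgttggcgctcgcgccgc
Lncpint held 1 E-box, starting 49 bases before the start of transcription, and Tug1 held none in this window. Of 32851 promoters of that length 7.15% held an E-box. Neither window held a p53 half-site, which 8.36% of all promoters held. GC content was 58.7% for Lncpint and 71.3% for Tug1. A match is a run of letters and not a measured binding site.

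The values were the authors' FPKM (fragments scaled by transcript length and by library size), summed over the models of a gene where a gene sum is given. Both control samples had a larger total over all rows (73600.1 and 73376.5 FPKM) than the NEAA samples (65718.5 and 60942.0), and the pair of loci Gm26917 and Gm42418 held between 46.1% and 52.9% of it. Counts and thus the sequencing depth are unknown. Of 14 symbols listed as hepatocyte markers, 3 could be analysed, and only Trf, which codes for transferrin, reached 1 FPKM. Its sum was 22.5 and 28.1 FPKM in control and 57.1 and 55.8 in NEAA. Analysed were 2 of 6 macrophage markers, 4 of 5 endothelial, 3 of 6 stellate cell and fibroblast and 1 of 4 cholangiocyte markers. The summed markers of macrophages lay between 0.530 and 1.69 FPKM in all 4 samples and those of endothelial cells between 0.590 and 1.26. Those of stellate cells and fibroblasts lay between 0.589 and 0.925, and the cholangiocyte marker, Krt7, between 0 and 0.0118. Values of protein-coding genes are not taken as mRNA levels, as explained with the lists below. These sums therefore do not show how many such cells were present. The part of other cell types in the results was not tested.

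Summed over its 10 models, Pvt1 was lower in hepatocytes given NEAA, and it was the member whose sum passed the test. Lncpint was lower by its means without passing. Its difference lay in 4 models picked after their values were seen, and unequal change among its models did not pass a test. Tug1 had nearly the same sum in all 4 samples. The groups are described by gene in that order.

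**Figure D1:**
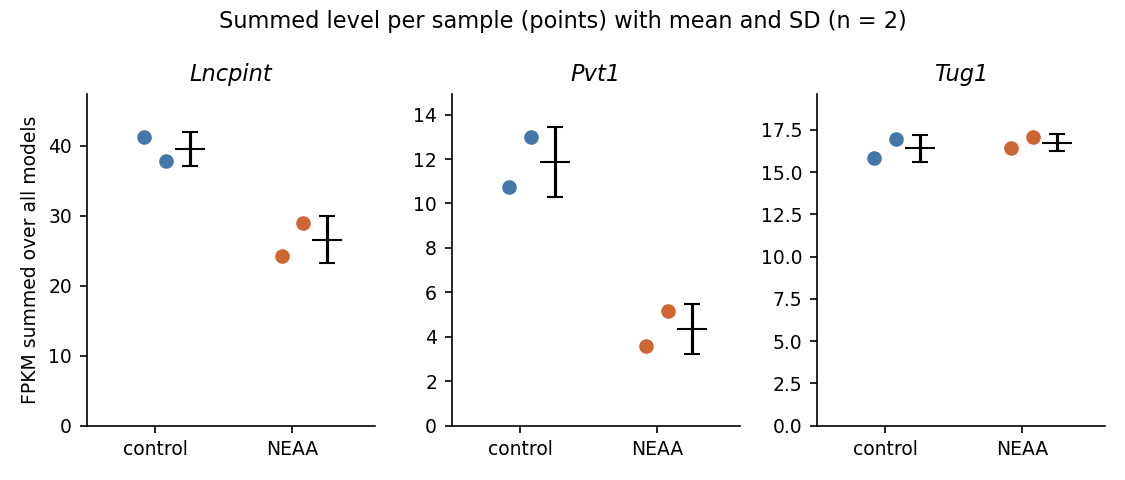
FPKM summed over all models of Lncpint, Pvt1 and Tug1 in each sample (points), with the group mean and SD (bars, n = 2) on axes that start at 0. Both NEAA samples lie below both control samples for Lncpint and Pvt1, while the Tug1 values of the groups overlap between 15.8 and 17.1.

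Pvt1 (ENSMUSG00000097039, GRCm38 chromosome 15, 62037986 to 62378096, plus strand, lincRNA) had a sum of 10.8 and 13.0 FPKM in control and of 3.57 and 5.16 FPKM in NEAA. Both NEAA samples lay well below both control samples. The mean fell from 11.9 ± 1.58 to 4.36 ± 1.12 FPKM (SD, n = 2), so control was 2.72 times NEAA. The log2 fold change of FPKM + 1 was -1.27 (SE 0.20, 95% interval -1.81 to -0.73, limma adjusted p = 0.0341 over 4700 gene sums). Of those sums 10.1% were called at an adjusted p under 0.05 in either direction, 4.11% lower and 6% higher in NEAA. As 282 higher and 193 lower calls these numbers depend on scaling, and they were 390 and 86 once every sample was rescaled to the same total, which moved the median log2 fold change of all gene sums from -0.06 to 0.13. On that scale Pvt1 stood at -1.23 and just missed the call (limma adjusted p = 0.0520). Only 58 of the 4700 had a more negative log2 fold change than Pvt1. The call is lost when any 1 of the 4 samples is left out. A group then holds 1 sample, and far fewer gene sums of the whole table, or none, are called. The loss is thus not particular to Pvt1, whose log2 fold change lay between -1.49 and -1.06 in those fits. In these bulk samples a smaller number of cells with the RNA and less RNA per cell cannot be told apart.

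All 10 models of Pvt1 had a lower mean in NEAA, where 58.9% of all 6064 tested models had a negative log2 fold change. For 7 of the 10, both NEAA values lay below both control values. Among all rows above 0 in at least 1 sample that pattern was found for 23.6%. The models of Pvt1 share exons and reads, so these are not counts of independent models. Only 3 models averaged 1 FPKM or more and could be tested singly, and none was called by limma, 2 of them having an unadjusted p under 0.05. Of all 6064 tested models 2.9% were called (0.956% lower and 1.95% higher in NEAA) and 25.9% had an unadjusted p under 0.05.

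The model of Pvt1 with the highest mean, model 7, measured 2.42 and 5.92 FPKM in control and 0.442 and 1.20 in NEAA. The control samples differed from each other more than 2-fold in it, and its log2 fold change of -1.45 (SE 0.43) had an adjusted p of 0.150 by limma. Model 1 measured 3.05 and 2.46 FPKM in control and 0.699 and 1.14 in NEAA, with closer replicates. The log2 fold change came to -0.97 (SE 0.18, limma adjusted p = 0.0758). Model 8 measured 2.21 and 1.52 FPKM in control and 0.793 and 1.61 in NEAA. Its groups overlapped, since NEAA 2 lay above control 2, and the log2 fold change came to -0.39 (SE 0.25, limma adjusted p = 0.394).

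The other 7 models of Pvt1 had means under 1 FPKM and were not tested. Of these, model 2 was the highest, at 1.14 and 1.44 FPKM in control and 0.579 and 0.487 in NEAA, just under the level needed. Model 5 measured 0.982 and 0.666 FPKM in control against 0.454 and 0.222. Models 6, 9 and 10, at 0.481 FPKM or less, also had both NEAA values under both control values, while models 3 and 4, at 0.191 FPKM or less, overlapped between the groups. Of the 7, which are not independent, 5 were separated downward, against 19.7% of all rows above 0 with a mean under 1 FPKM.

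**Figure D2:**
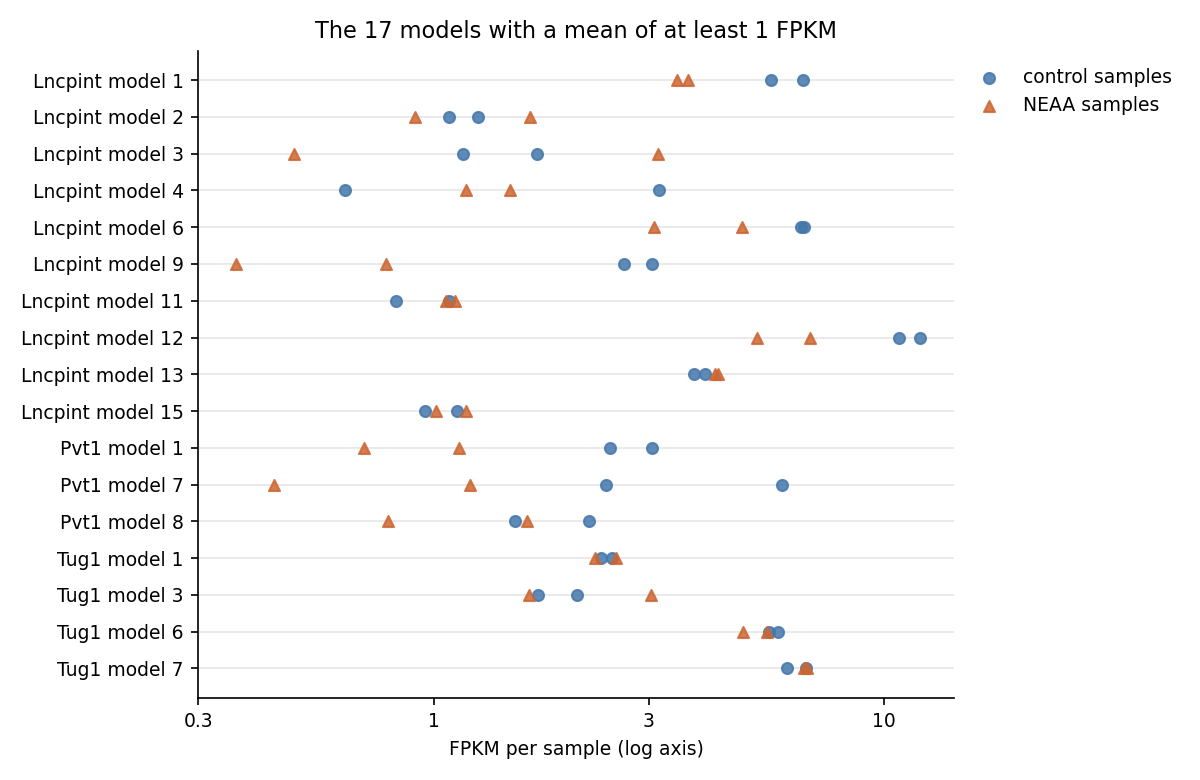
FPKM per sample (log axis) of the 17 models that averaged 1 FPKM or more, with circles for control and triangles for NEAA. The NEAA triangles lie left of both control circles for models 1, 6, 9 and 12 of Lncpint, models 1 and 7 of Pvt1 and, narrowly, model 6 of Tug1.

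The share of single models in the Pvt1 sum varied between replicates. Model 7 held 22.5% and 45.6% of it in control and 12.4% and 23.3% in NEAA. Model 8 held 20.6% and 11.7% in control and 22.2% and 31.2% in NEAA. A test of unequal change among the 3 tested models (limma's diffSplice, F test) gave an adjusted p of 0.692 over 1384 genes with several tested models, of which 0.939% were called. Models of a gene share exons and reads, so they are not independent, and the diffSplice test treats them as if they were.

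Near Pvt1 within 100000 bases GENCODE M21 places Myc, on the same strand with 47612 bases between the genes. Myc was not analysed here. The processed pseudogene H2afy3 lies inside Pvt1 on the other strand, and with no strand setting stated, reads of overlapping loci cannot be told apart.

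Lncpint (ENSMUSG00000044471, GRCm38 chromosome 6, 31082565 to 31220488, minus strand, lincRNA) was the member with the highest sum, which adds 16 models. Its sum was 41.3 and 37.8 FPKM in control and 24.2 and 28.9 FPKM in NEAA. Both NEAA samples lay below both control samples, a pattern that 34.4% of all tested gene sums had. The mean was 39.5 ± 2.44 FPKM in control and 26.6 ± 3.35 in NEAA (SD, n = 2). The log2 fold change of -0.56 (SE 0.15, 95% interval -0.97 to -0.15) did not pass (limma adjusted p = 0.0916). The unadjusted p was 0.0174, and 30.7% of all gene sums had one under 0.05. A more negative log2 fold change was found for 529 of the 4700 gene sums. Under quantile normalization the value moved to -0.26.

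The lower sum of Lncpint lay in models 1, 6, 9 and 12, a grouping made after their values were seen and thus given without a test. They are the 4 of its 10 tested models with both NEAA values below both control values, a pattern that 36% of all tested models had. Model 12, the highest, measured 11.997 and 10.8 FPKM in control and 5.21 and 6.83 in NEAA. The log2 fold change came to -0.83 (SE 0.18, limma adjusted p = 0.0975). Model 6 measured 6.65 and 6.54 FPKM in control and 3.08 and 4.84 in NEAA. The replicates of control were close in it and those of NEAA were not, and the log2 fold change came to -0.64 (SE 0.22, limma adjusted p = 0.182).

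Model 1 of Lncpint measured 6.62 and 5.61 FPKM in control and 3.67 and 3.47 in NEAA, which came to -0.63 as log2 fold change (SE 0.14, limma adjusted p = 0.101). Of the 10 tested models, model 9 had the largest relative difference, at 2.64 and 3.05 FPKM in control and 0.785 and 0.363 in NEAA. Its log2 fold change of -1.30 (SE 0.18) came closest to the threshold (limma adjusted p = 0.0549). These 4 models together came to 26.9 ± 1.37 FPKM in control and 14.1 ± 1.95 in NEAA. Their share of the Lncpint sum was 67.6% and 68.7% in control and 52.7% and 53.6% in NEAA.

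The other 12 models of Lncpint together were at 12.6 ± 1.07 FPKM in control and 12.4 ± 1.40 in NEAA. They are what was left once the lower models were set aside, so this near equality follows in part from that choice. Of the 12, model 13 averaged 3.89 ± 0.149 FPKM in control and 4.25 ± 0.0418 in NEAA (SD, n = 2), and both NEAA values, 4.22 and 4.27, were slightly above both control values. Its log2 fold change was 0.10 (95% interval -0.24 to 0.44, limma adjusted p = 0.641). Among all tested models 22.8% had both NEAA values above both control values and 36% had both below. Models 2, 11 and 15 lay between 0.826 and 1.64 FPKM in all samples and overlapped between groups. Models 3 and 4 varied between replicates, from 0.491 to 3.14 FPKM within NEAA for model 3 and from 0.636 to 3.16 within control for model 4. The replicate spread of both was wider than the difference of their group means.

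Of the 10 models of Lncpint that were tested, 5 had a negative log2 fold change and 5 a positive one. The median was -0.07, against -0.09 for all tested models. None was called by limma, and 4 had an unadjusted p under 0.05, where all tested models had 2.9% and 25.9%. The test of unequal change among the 10 models did not pass (diffSplice F = 2.08, adjusted p = 0.555, unadjusted p = 0.0774). Of the 6 models of Lncpint with means under 1 FPKM, models 14 and 16 were listed at 0 in every sample and model 7 was listed at 0 in all samples but NEAA 1. Model 8 measured 0.512 and 1.13 FPKM in control and was at 0.129 in NEAA 1 and listed at 0 in NEAA 2. Model 5 had both NEAA values below control, at 0.515 and 0.672 against 0.776 and 0.941 FPKM, and model 10 both above, at 0.671 and 0.712 against 0.537 and 0.526. Of the 14 models of Lncpint above 0 in at least 1 sample, 6 thus had both NEAA values below control and 2 both above. These patterns were found for 23.6% and 21.8% of all rows above 0, and models of a gene are not independent. GENCODE M21 gives the transcripts of Lncpint lengths from 137 to 1676 bases, and the number of reads behind a low model is unknown.

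**Figure D3:**
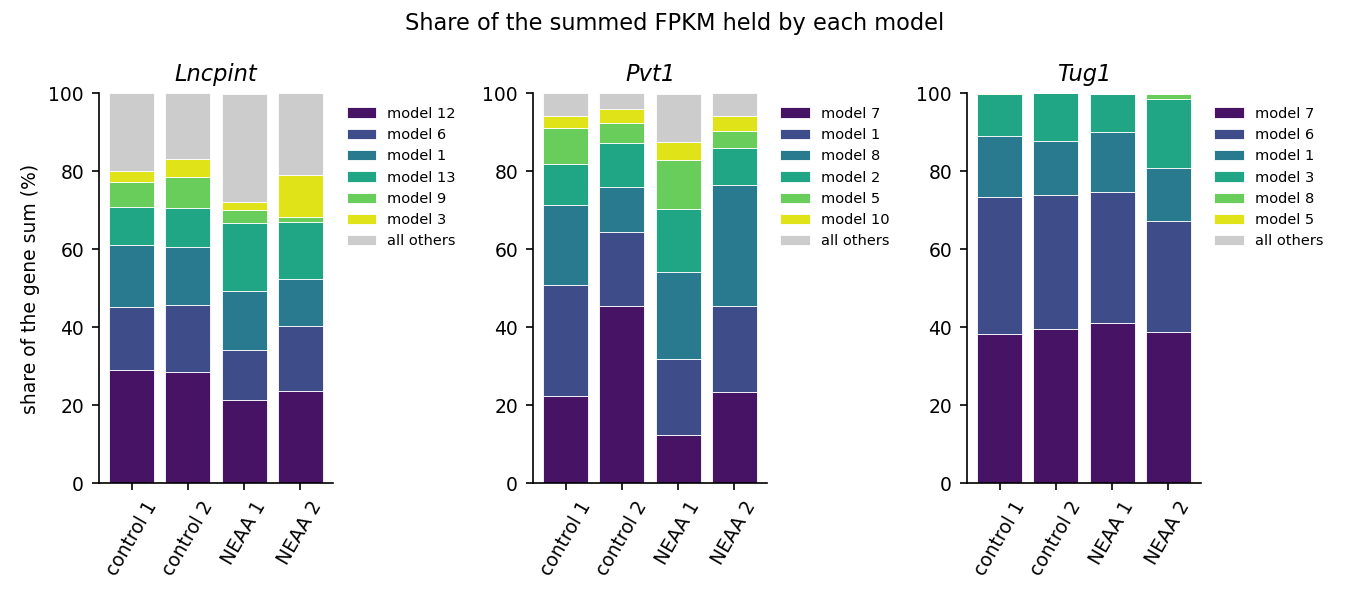
Share (%) of the summed FPKM of Lncpint, Pvt1 and Tug1 held by single models in each sample, with the 6 models of highest mean drawn separately and all others in grey. The share of model 12 of Lncpint was 29.1% and 28.5% in control and 21.5% and 23.6% in NEAA, whereas that of model 7 of Tug1 lay between 38.4% and 41.1% in all 4.

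Beside Lncpint, 3 annotated genes within 100000 bases had rows. The lncRNA 2210408F21Rik starts on the other strand 138 bases inside the end of the GENCODE M21 span from which Lncpint is transcribed. The RefSeq promoter window printed above ends at 31218724 and does not reach 2210408F21Rik, which starts at 31220351. The sum of 2210408F21Rik over 14 models was 3.66 and 3.70 FPKM in control and 5.79 and 5.77 in NEAA. It was thus higher in both NEAA samples, the other way round from Lncpint and as 26.2% of tested gene sums were. The log2 fold change of 0.53 (SE 0.12) did not pass (limma adjusted p = 0.0638). Each of the 14 models averaged 0.915 FPKM or less over the 4 samples, and they differed in direction. Model 11 measured 0.525 and 0.319 FPKM in control and 1.41 and 1.40 in NEAA, but model 2 measured 0.534 and 1.31 against 0.511 and 0.352. The lincRNA Gm27019, 19070 bases beyond the other end, measured 5.59 and 3.82 FPKM in control and 1.56 and 2.90 in NEAA (log2 fold change -0.83, SE 0.28, limma adjusted p = 0.129). Gm13833, which lies inside Lncpint on the other strand, was at 0.0977 FPKM or less in each sample. Gm13833 was too low to test, and of the other 2 limma called neither. Both had an unadjusted p under 0.05, as 30.7% of all gene sums had.

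Tug1 (ENSMUSG00000056579, GRCm38 chromosome 11, 3639785 to 3649673, minus strand, annotated as antisense) had a sum of 15.8 and 16.95 FPKM in control and of 16.4 and 17.1 FPKM in NEAA. The groups overlapped, and the means were 16.4 ± 0.791 and 16.7 ± 0.477 FPKM (SD, n = 2). The log2 fold change came to 0.03 (SE 0.13, limma adjusted p = 0.896), with a 95% interval from -0.31 to 0.37. The sign of so small a value is not fixed, and it was -0.02 without control 1.

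The Tug1 sum was held by 4 models. Model 7 measured 6.08 and 6.72 FPKM in control and 6.75 and 6.64 in NEAA. Model 6 measured 5.56 and 5.81 FPKM in control and 5.50 and 4.87 in NEAA, so that NEAA was slightly lower in both samples. Model 1 measured 2.48 and 2.35 FPKM in control and 2.53 and 2.28 in NEAA. These 3 had group differences smaller than, or close to, the difference between replicates. Model 3 measured 1.70 and 2.08 FPKM in control and 1.63 and 3.03 in NEAA, with NEAA 2 apart from the other samples. The log2 fold changes of the 4 ran from -0.11 to 0.17, none was called by limma and none had an unadjusted p under 0.05 (adjusted p from 0.634 to 0.987). The remaining 4 models were listed at 0 in at least 3 of the samples, and the test of unequal change gave an adjusted p of 0.980.

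Tug1 overlaps the first 483 bases of Morc2a, a gene for a chromatin ATPase on the other strand. Morc2a was not analysed here.

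**Figure D4:**
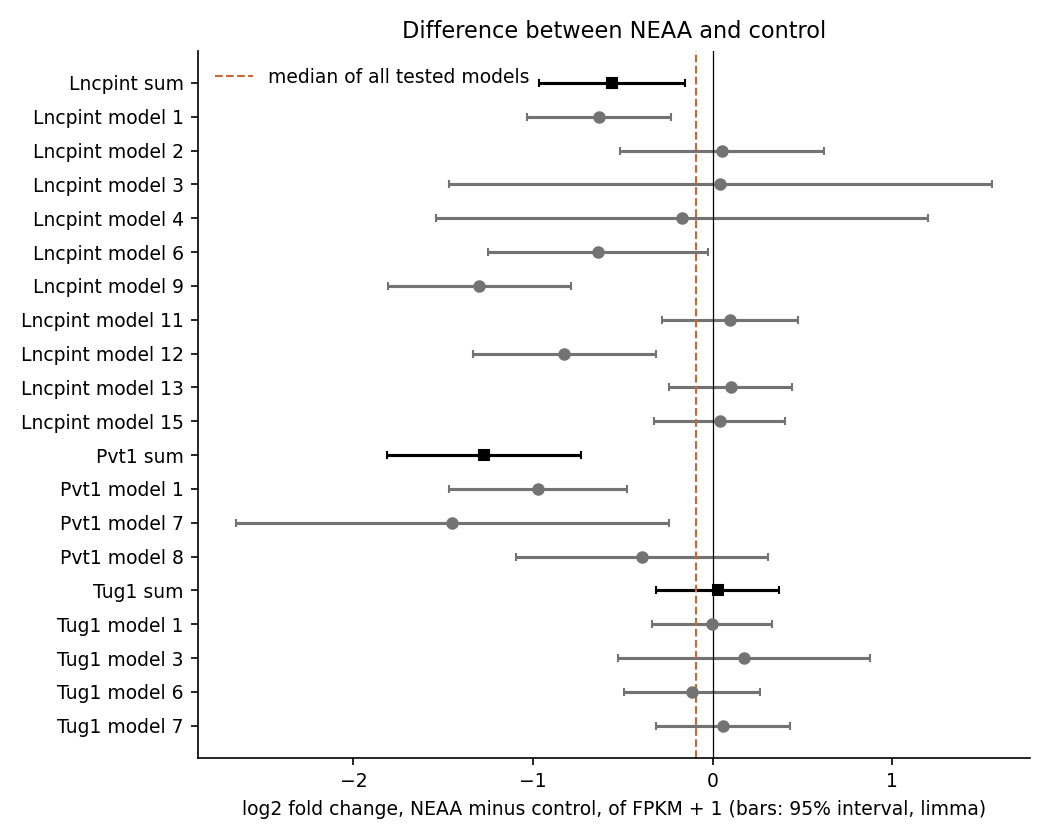
Log2 fold change of FPKM + 1, NEAA minus control, of the 3 gene sums (squares) and the 17 tested models (circles), with 95% intervals from limma, before adjustment for the number of features. The interval of the Pvt1 sum runs from -1.81 to -0.73, that of the Tug1 sum spans 0, and the dashed line marks the median of all tested models at -0.09.

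The ratio of 2 members within a library does not depend on how the libraries are scaled. Pvt1 over Tug1 was 0.679 and 0.767 in control and 0.218 and 0.302 in NEAA. Lncpint over Tug1 was 2.61 and 2.23 in control and 1.48 and 1.69 in NEAA. Pvt1 over Lncpint was 0.261 and 0.344 in control and 0.148 and 0.178 in NEAA. In all 3 ratios both NEAA values lay below both control values, a pattern that 34.4% of all tested gene sums had. The share of gene pairs whose ratio has that pattern was not computed. The ratios reuse the 3 sums given above, so they are not separate results. Each ratio had p = 0.333 in an exact permutation test (two-sided), the smallest value that 2 samples a group allow. Per length, the order of the sums was Lncpint, Tug1, Pvt1 in each of the 4 samples, and no pair of neighbours in that order overlapped within a group. The sums add 16, 8 and 10 models in that order, so the ranking may depend on the number of models. By the model of highest mean it differed in NEAA 1, at 5.21 FPKM for Lncpint model 12 and 6.75 for Tug1 model 7.

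**Figure D5:**
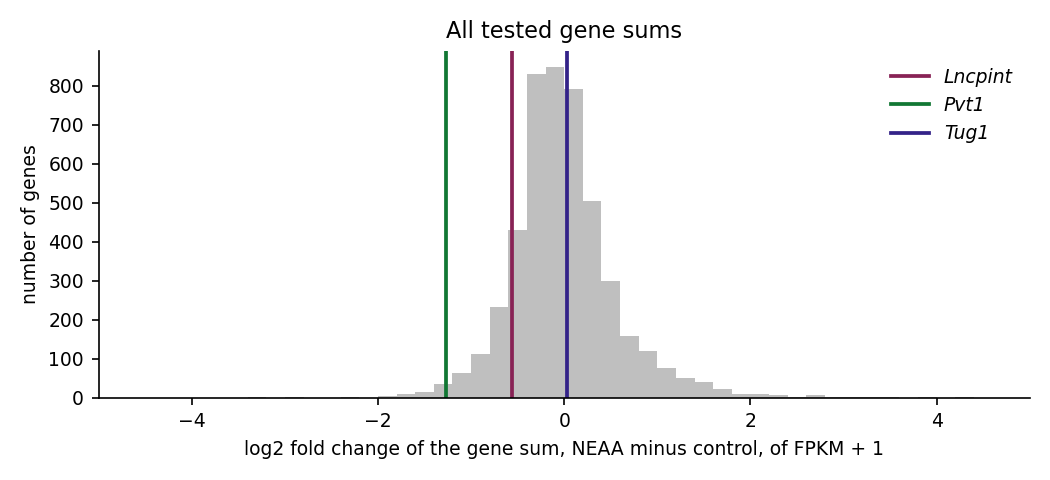
Distribution of the log2 fold change of FPKM + 1, NEAA minus control, over all 4700 tested gene sums (bars, number of genes), with lines for the 3 members. Pvt1 at -1.27 lies in the left tail, Lncpint at -0.56 on the left flank and Tug1 at 0.03 near the centre.

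The pathways around the members were described by lists. In 97% of the 9265 protein-coding genes with rows, the number of rows equals the number of transcripts annotated with a retained intron, so a value of such a gene is not taken as its mRNA level. The gene sums named from the lists were chosen after their values were seen. With either control sample left out no gene sum of the whole table was called by limma, and with any 1 sample left out no model was called, so none of the calls below held in those fits. Of all 4700 gene sums 4.11% were called lower, 6% were called higher and 30.7% had an unadjusted p under 0.05, and the counts of each list are to be read against these shares. Of 40 genes in a list drawn up for the p53 pathway, 14 had a tested gene sum. Among the 14, 4 had an unadjusted limma p under 0.05 and 1 fell, both near the shares over all gene sums. The one that fell was Gadd45a, a stress gene that slows the cell cycle, at 11.0 and 10.6 FPKM in control and 4.21 and 4.32 in NEAA (limma adjusted p = 0.0156). Ccng2, a cyclin gene of the p53 list, went the other way, at 0.993 ± 0.0990 FPKM in control and 1.90 ± 0.0816 in NEAA, without passing (limma adjusted p = 0.0665). Eda2r, a receptor induced by p53, measured 7.71 ± 0.446 and 4.73 ± 0.664 FPKM and Zmat3, an RNA-binding p53 target, 2.65 ± 0.505 and 1.38 ± 0.103, without passing (limma adjusted p = 0.0727 and 0.0779). Mdm2, which codes for the ligase that removes p53, measured 11.7 ± 1.36 and 11.9 ± 0.349 FPKM. The median log2 fold change of the 14 sums was -0.14, against -0.06 for all gene sums. Of the 23 tested models of this list limma called none, and 5 had an unadjusted p under 0.05, the lowest adjusted p being 0.0594 for a model of Gadd45a.

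Of 20 symbols listed for the Myc network, 7 had a tested sum and limma called none, with 3 at an unadjusted p under 0.05. Max, the partner of Myc on DNA, measured 3.18 ± 0.0813 FPKM in control and 1.93 ± 0.0446 in NEAA (limma adjusted p = 0.0669). Mxd4, which competes for Max, measured 1.26 ± 0.0636 and 2.17 ± 0.0389 FPKM and Mlxipl, the carbohydrate-responsive factor of liver, 1.55 ± 0.150 and 3.11 ± 0.447 (limma adjusted p = 0.0753 and 0.0553). Max was thus lower, and Mxd4 and Mlxipl were higher, in both NEAA samples. The median log2 fold change of the 7 sums was 0.26, against -0.06 for all gene sums.

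Of 30 genes known as targets of Myc, 21 had a tested sum, of which 3 fell, 1 rose and 14 had an unadjusted p under 0.05, where all gene sums had 4.11%, 6% and 30.7%. The median log2 fold change was -0.65, against -0.06 for all gene sums. Mybbp1a, a nucleolar protein gene, fell from 80.8 ± 3.19 to 32.7 ± 2.46 FPKM (limma adjusted p = 0.0156). Odc1, the first enzyme of polyamine synthesis, fell from 10.1 ± 0.963 to 5.72 ± 0.210 FPKM, and Fbl, the methyltransferase of nucleolar snoRNA particles, from 4.05 ± 0.178 to 1.78 ± 0.479 (limma adjusted p = 0.0464 for both). Eif4a1, a helicase of translation initiation, rose from 14.1 ± 0.368 to 32.0 ± 2.55 FPKM (limma adjusted p = 0.0190). By single models, 3 of 56 fell and 1 rose, where 0.956% of all tested models were called lower and 1.95% higher. A negative log2 fold change was found for 45 of the 56 and for 58.9% of all tested models. Several models of a gene count separately here. The models that fell belonged to Nop56, Mybbp1a and Ncl, which code for proteins of the nucleolus, and the one that rose to Eif4a1. The sums of Nop56 and Ncl were not called (limma adjusted p = 0.331 and 0.0695). Nop56 summed to 16.7 and 17.4 FPKM in control and 5.44 and 16.0 in NEAA, and Ncl to 29.8 and 65.9 against 14.5 and 12.6.

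Of 18 genes of PRC2 and partner chromatin factors, 9 had a tested sum and limma called none, with 1 at an unadjusted p under 0.05. That was Suz12, a core subunit, at 2.73 ± 0.424 and 1.58 ± 0.470 FPKM (limma adjusted p = 0.140). Ezh2, the methyltransferase, measured 3.81 ± 0.413 and 4.72 ± 0.191 FPKM, and Eed 23.7 ± 0.612 and 19.6 ± 0.589. A negative log2 fold change was found for 7 of the 9 sums and for 55.1% of all gene sums, and the median of the 9 was -0.24. Of 32 regulators of G1 and S phase, 12 had a tested sum and limma called none, with 2 at an unadjusted p under 0.05. They were Ccnd3, a cyclin, at 0.673 ± 0.329 and 1.99 ± 0.238 FPKM, and Mcm6, of the replicative helicase, at 0.599 ± 0.212 and 1.51 ± 0.354 (limma adjusted p = 0.0605 and 0.0914). The median of these 12 was 0.16.

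The genes most like each member were found by the distance between log2 values of gene sums over the 4 samples, each gene centred on its mean, so they describe these 4 libraries only. For Pvt1 they were Hddc2, Hmga1b, H2-DMa, Ppid and Gas5, at distances from 0.12 to 0.18. Gas5, a lncRNA that hosts snoRNAs and was named for growth arrest, had a sum of 73.7 and 83.9 FPKM in control and 32.0 and 39.7 in NEAA. Hmga1b has a near-identical copy, Hmga1, so its value of 21.2 FPKM in control and 7.68 in NEAA is uncertain. Among the nearest to Lncpint were Ube2w, Nvl, Plscr2 and Fau (0.05 to 0.07), with log2 fold changes from -0.61 to -0.51. For Tug1 they were Dolpp1, Nub1, Derl2, Crbn and Ift20 (0.01 to 0.04), with log2 fold changes from 0.02 to 0.06.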

How the data were processed

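The authors deposited 1 file for each sample, whose values are FPKM per the file names. The submitters' processing notes name GRCm38 and mm10, names of the same mouse assembly. Libraries were made from Trizol-extracted total RNA with the NEBNext Ultra RNA kit, per the labels' protocols. Aligner, estimator of FPKM, annotation, strand setting and filters: not given in the sources used here. Symbols and coordinates (1-based) came from GENCODE M21, promoters from RefSeq.

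Rows were joined by position and identifier. Single models and gene sums with a mean of at least 1 FPKM were fitted separately over the whole table with limma 3.58.1 under R 4.3.3, as log2(FPKM + 1) by group (lmFit, eBayes with a mean trend, diffSplice), two-sided, with Benjamini-Hochberg adjustment and a call at an adjusted p under 0.05. Fold changes on this scale understate the change of low models. A 0 is taken as a listed value. Genes were named by a rule: every member model, neighbours with rows within 100000 bases, the 5 symbols nearest to each member (1 is not reported here), and from each list the called models and up to 4 of smallest p. Other genes named were chosen after their values were seen. The members and lists were chosen with earlier results of these data known. The scripts were tested on simulated data. Alternatives covered the pseudocount, level filter, scaling, variance trend, replicate block, left-out samples and the gene summary.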

Additional observations from a re-analysis of the deposited data

How the results depend on the processing

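The Pvt1 sum was negative in all 15 alternatives (log2 fold change -1.49 to -1.06) and stayed called in 7. It lost its call without the level filter (-1.27, limma adjusted p = 0.0649) and after rescaling each sample to a sum of 1000000 (-1.23, 0.0520). The call was also lost when only models of at least 1 FPKM were summed (-1.35, limma adjusted p = 0.0785) and with its highest model alone (-1.45, 0.143). With a sample left out (-1.49 to -1.06) it was lost too, where far fewer gene sums of the whole table, or none, were called. The cause was not tested. The Lncpint sum was negative and uncalled in all 15 (-0.83 to -0.26). The Tug1 sum was uncalled in all and changed sign in 1, with values from -0.0173 to 0.0755 when a sample was left out. A lone sample in a group is assumed to vary like the other group.

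Among all features, limma called 176 models and 475 gene sums, and diffSplice 13 genes. Without the level filter it called 0 models (4000 with an unadjusted p under 0.05), 244 sums and 142 genes, and with a filter of 5 FPKM 100, 153 and 2. Rescaling gave 110 models and 6 genes by diffSplice, and rescaling without Gm26917 and Gm42418 gave 117 models. Leaving out a sample gave 0 models each time (1076 to 1248 with an unadjusted p under 0.05), 0 to 91 sums and 3 to 16 genes by diffSplice.

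With the replicate block limma called 0 models (1323 with an unadjusted p under 0.05), 185 sums and 0 genes by diffSplice, and the Pvt1 sum kept its call (adjusted p = 0.0451). Deviations of same-numbered samples had a correlation of -0.00192 across 6064 models, so the numbers were not taken as pairs.

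No member model was called under any alternative. All 36 values of Pvt1 models kept their sign, while 11 of 122 for Lncpint and 9 of 50 for Tug1 changed it. Model 3 of Lncpint was at -0.12 with a pseudocount of 0.1, -0.00709 with 0.5 and -0.0544 after rescaling without Gm26917 and Gm42418, and model 4 was at 0.0820 after rescaling. Model 1 of Tug1 was at 0.20 after rescaling, 0.0956 without those loci and 0.0410 under quantile normalization, and model 6 at 0.0794 after rescaling and 0.0128 under quantile normalization. With a sample left out, Lncpint models 2, 3, 4 and 15 ranged from -0.18 to 0.28, -0.70 to 0.78, -0.84 to 0.50 and -0.0211 to 0.0976. Tug1 models 1, 3 and 7 ranged from -0.0567 to 0.0490, -0.13 to 0.48 and -0.00485 to 0.12. With a filter of 5 FPKM no model of Pvt1 was left for diffSplice. The depth behind low models is unknown.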
